A study of Sus scrofa with 8 samples.

Results

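Genes of collagens, of the proteins that hold the extracellular matrix together and of the proteases and inhibitors that remodel it were examined in boar testes. The members were the probes whose pig RefSeq symbol, or gene name in the study's supplementary list of testis probes with P under 0.05, is that of a collagen, laminin, matrix metalloproteinase (MMP), tissue inhibitor of metalloproteinases (TIMP), ADAMTS protease or procollagen C-proteinase enhancer (PCOLCE), or is FN1, SPARC, DCN, LUM, BGN or FBN1. This gave 29 probes of 21 genes, out of 43603 probes on the array, of which 3064 have a gene name (2228 genes). RefSeq named 25 of them and the study's list the other 4. No probe was named for a laminin (0 genes) or a collagen of type IV (0 genes), nor for FN1, LUM, BGN or PCOLCE, so that the basement membrane of the tubules and these genes were not analysed here.

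Testis RNA of 8 Large White boars was hybridized with a single dye (Cy3) to 1 porcine Agilent array each. The 4 boars m_9597, m_9599, m_9499 and m_9527 were fed, between 1 and 10 months of age, a standard diet with added methionine, choline, betaine, folate and the vitamins B6 and B12 (supplemented diet). The 4 boars m_9598, m_9600, m_9502 and m_9528 were fed the standard diet without these additions (control diet). The question was whether the diet affects gene expression in the testes and could so reach spermatogenesis.

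A single litter of full brothers (m_9597, m_9598, m_9599 and m_9600) lay together on 1 slide, with the other boars on the second. The other boars come from further litters that were also divided between the diets, and which boar belongs to which of them is not given in the sources used here. The litter of brothers and its slide cannot be told apart, and neither can the diet and the place on the slide, because arrays at places 1 and 3 of either slide held supplemented boars and those at places 2 and 4 control boars. The median intensity of the spots lay between 108 and 192.5 over the arrays. Well above background were 76.3% to 79.6% of the spots in the supplemented boars and 77.3% to 86.5% in the control boars. The spermatid genes PRM1, PRM2, ACR and ODF1 had mean log2 signals from 14.05 to 18.58, each well above background in every boar. The 13 probes of the Leydig cell list (7 of 7 genes), among them INSL3 at 18.62, were present as well. Of the fibroblast list no probe was present, and of its 4 genes 1 was named. In whole tissue, fewer cells of a type and less RNA per cell cannot be told apart.

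The extracellular matrix of the testis forms the wall of the seminiferous tubules, built jointly by Sertoli cells and peritubular myoid cells, and the loose interstitium around Leydig cells and vessels. Fibrillar collagens are secreted as procollagens, whose C-terminal propeptide is removed by BMP1-type proteinases before fibrils can form. PCOLCE and PCOLCE2 bind the propeptide and speed up this cleavage. MMPs and ADAMTS proteases cut matrix proteins, and TIMPs block most MMPs. Decorin (DCN), fibrillin-1 (FBN1) and SPARC are matrix proteins that organise fibrils, form microfibrils and bind collagen, respectively.

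The 3 PCOLCE2 probes and the COL6A6 probe are the members named by the study's list alone, and the opening 30 of the 60 bases of each are shown because the PCOLCE2 result rests on whether different stretches give the same values. The sequences were copied from that list, run 5′ to 3′, and no base is marked.
PCOLCE2 A_72_P371443: caagcatttgctctgaggtgttacagactt
PCOLCE2 A_72_P365563: ggactagtaagggcatagattatgctgagt
PCOLCE2 A_72_P022571: tctcagagagctaagaaatgctgcctaatc
COL6A6 A_72_P118326: caggctcagttaagagaggagaataaacca
Any 2 of the PCOLCE2 probes share at most 6 bases in a row on the printed strand. The probe A_72_P365563 has a stop codon in all 3 reading frames of the printed strand, while stops were found in 2 frames of A_72_P022571 and in 1 frame of A_72_P371443. GC content was 35.0% for A_72_P371443 and A_72_P022571 and 43.3% for A_72_P365563.

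Presence followed the study's rule, which needs the well-above-background flag and a signal over 25 for 50% or more of the boars on a diet, and 36982 probes met it for at least 1 diet. Of the 25 probes named by RefSeq, 22 probes of 16 genes were present. On all 8 arrays 21 of the 25 were well above background, as were 71.1% of all probes of the array, present or not. The exception among the present probes was COL11A1 (A_72_P143151), a minor fibrillar collagen. It was well above background in 1 boar on the supplemented diet and 3 among the control boars. The 3 probes that were not present belong to metalloproteinases. MMP1 (A_72_P413508), interstitial collagenase, and MMP20 (A_72_P185211), the enzyme of tooth enamel, were not well above background on any array. MMP12 (A_72_P077481), macrophage elastase, was well above background in a single control boar. All values below are log2 signals after quantile normalization without background subtraction. The brightness of a probe also depends on its sequence, so levels were compared between boars and not between probes.

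In each of its 3 probes, PCOLCE2 was lower in all 4 supplemented boars than in the 4 control boars. These probes carry the name PCOLCE2 only because the study annotated probes with P under 0.05 between these same boars, so that the difference is given as a description and was not tested. Diets that do not overlap were found in 1.13% of all present probes, and nothing is read from this count for members chosen by their difference.

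The PCOLCE2 probe A_72_P371443 was well above background on all 8 arrays. Its log2 signal was 8.28 in boar m_9597, 7.98 in m_9599, 7.93 in m_9499 and 8.08 in m_9527 on the supplemented diet, and 8.73 in m_9598, 9.20 in m_9600, 8.92 in m_9502 and 9.68 in m_9528 on the control diet. The group means were 8.07 ± 0.16 (SD, n = 4) and 9.14 ± 0.41 (SD, n = 4), so that the difference was -1.07 on the log2 scale (SE 0.21), or 2.10-fold. The gap between the diets, from 8.28 to 8.73, was thus narrower than the range within the control diet.

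The PCOLCE2 probe A_72_P365563 was dimmer, with 5.56 in boar m_9597, 5.54 in m_9599, 5.43 in m_9499 and 5.42 in m_9527 against 6.19 in m_9598, 6.45 in m_9600, 6.65 in m_9502 and 6.07 in m_9528. The log2 fold change was -0.85 (SE 0.16). It was well above background in 1 of the 4 boars on the supplemented diet and in all 4 control boars.

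The PCOLCE2 probe A_72_P022571 was not well above background in any boar on the supplemented diet, where it measured between 5.22 and 5.32. In the control boars it measured 7.33 in m_9598, 6.13 in m_9600, 6.10 in m_9502 and 6.10 in m_9528, well above background in all 4. For a bound, the lowest signal with the flag on an array stood in for any value below it. The supplemented mean was then 5.30, against a control mean of 6.41, or 2.17-fold lower without background subtraction. Boar m_9599, at 5.32, was above that signal on its array (5.14) and still had no flag, so the bound is no detection limit. It is nominal, and no lower limit for other sets of boars or other treatments of the data. Taken from the dim signals as they stand, the log2 fold change ran from -2.63 to -0.64 over the alternatives. It ran from -1.24 to -0.83 when single boars were omitted. Boar m_9598 stood far above the other control boars here, and it was the lowest control boar in the first of the 3 probes.

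**Figure D1:**
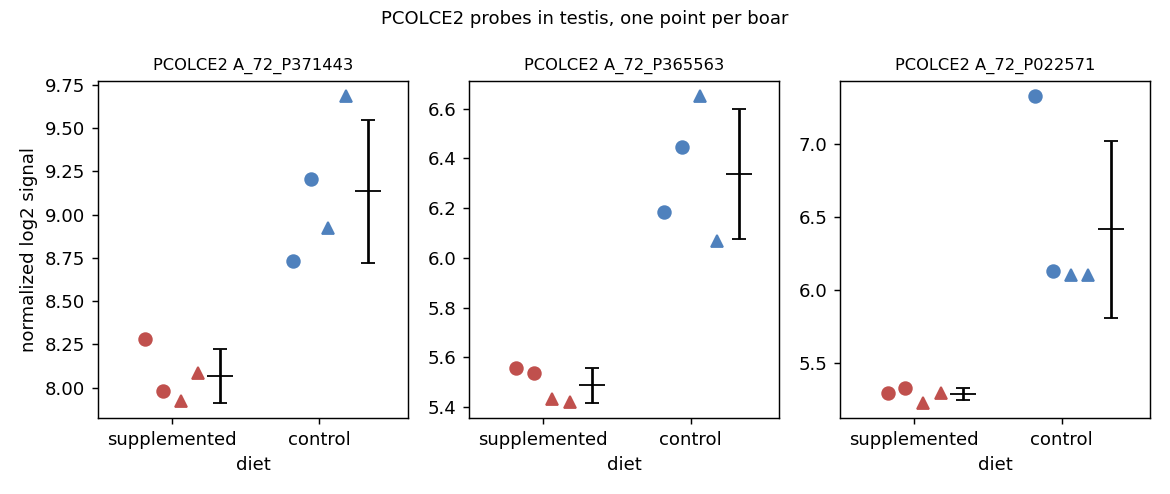
Normalized log2 signal of the 3 PCOLCE2 probes, 1 point per boar, with circles for the litter of brothers (slide 1), triangles for the other boars (slide 2), and mean and SD of the 4 boars of a diet as black bars. In each probe all boars on the supplemented diet lie below all control boars, and boar m_9598 is alone at 7.33 in probe A_72_P022571.

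For A_72_P371443, the PCOLCE2 probe measured on all arrays, the difference was -0.84 among the brothers and -1.30 among the other boars. Its sign on each slide follows from the separation for which the probe was chosen. The 3 probes did not share an order of the control boars, since the highest control boar was m_9528, m_9502 and m_9598, respectively. The size depends on the treatment of background for the dim probes A_72_P365563 and A_72_P022571. With the background-subtracted signal (gProcessedSignal, each array scaled to its 75th percentile) their log2 fold changes were -1.86 and -2.63, respectively. With normexp (offset 50) they were -0.49 and -0.64.

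The cell type lists, which were not chosen by their difference between these boars as the PCOLCE2 probes were, are given beside them. The median of the Leydig cell list, relative to the mean of the 8 boars, ran from -0.92 to 1.07 in the supplemented and from -0.15 to 0.36 in the control boars, and 12 of its 13 probes were lower on average on the supplemented diet. It was -0.16 to 0.26 against -0.43 to 0.46 for the peritubular list (8 probes, 4 of 7 genes) and -0.16 to 0.09 against -0.09 to 0.10 for the Sertoli cell list (11 probes, 8 of 9 genes). The diets thus overlapped in each of these lists, and so they did in the macrophage, endothelial, spermatid and duct epithelium lists. The 6 probes of the duct epithelium list (3 of 5 genes) were all lower on average on the supplemented diet, with list medians from -1.01 to 0.67 against -0.68 to 0.86. Of the other lists, 4 of 8 peritubular, 6 of 11 Sertoli, 3 of 4 endothelial, 1 of 4 spermatid and 0 of 6 macrophage probes were lower. Over all present probes 50.5% were lower, and several probes of a list measure the same gene. The part of these cell types in the PCOLCE2 difference was not tested.

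COL6A6, a chain related to type VI collagen and the other member named by the study's list, measured 5.47, 5.51, 5.49 and 5.34 in the boars m_9597, m_9599, m_9499 and m_9527 and 5.28, 5.17, 5.40 and 5.30 in the control boars m_9598, m_9600, m_9502 and m_9528. The diets overlapped between 5.34 and 5.40. The log2 fold change was 0.16 (SE 0.13), on a probe close to background.

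For the 22 present probes named by RefSeq, whose names do not depend on the diet difference, the diets were compared with limma over all present probes. A single one, 1 of 22 or 4.55%, reached P under 0.05, against 1.86% of all present probes. It was higher on the supplemented diet, as were 0.938% of all present probes at this P-value, while 0 members were lower at this P-value, against 0.925%. A count of 1 in so short a list cannot be set apart from that background. After Benjamini-Hochberg adjustment 0 were left, and the smallest adjusted p was 0.840 (limma). In no probe did the diets fail to overlap (0 of 22). The mean of the supplemented boars was the higher one in 14 of the 22 probes and the lower one in 8, where 50.5% of all present probes were lower. The median log2 difference was 0.07, against -0.003 over all present probes, and the range was -0.36 to 0.70.

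**Figure D2:**
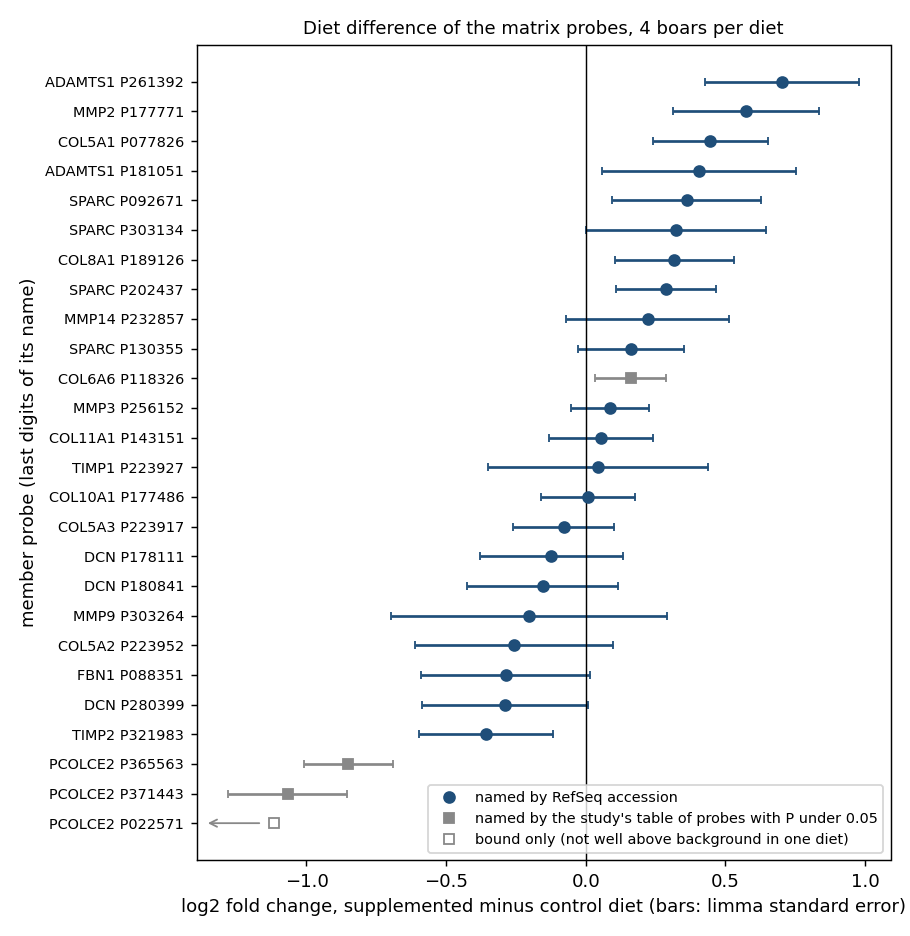
Log2 fold change of the 26 present member probes, supplemented minus control diet, with limma standard errors (SE) as bars. The 22 probes named by RefSeq (circles) lie between -0.36 and 0.70, while PCOLCE2 (squares), which the study named after its difference in these boars, lies at -1.07 and -0.85. For the third probe, A_72_P022571, only a nominal bound of -1.12 is drawn (open square with an arrow).

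ADAMTS1, a protease that cuts the proteoglycans versican and aggrecan, held the probe with a P-value under 0.05. The probe A_72_P261392 measured 8.49 in boar m_9597, 8.51 in m_9599, 8.82 in m_9499 and 8.64 in m_9527 on the supplemented diet, against 7.55 in m_9598, 8.79 in m_9600, 7.85 in m_9502 and 7.47 in m_9528. The control boar m_9600 lay among the boars on the supplemented diet, and the 3 other control boars lay below them. The difference was 0.70 (SE 0.28, 1.63-fold), with P = 0.0299 and an adjusted p of 0.840 in limma, and p = 0.114 in a two-sided exact permutation test over the boars. The difference was 0.33 among the brothers and 1.07 among the other boars. It stayed positive under every alternative run, but its P-value was above 0.05 without any one of the boars m_9499, m_9598, m_9502, m_9527 and m_9528 as well as in the methods' ordinary test and among the brothers alone.

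The second ADAMTS1 probe, A_72_P181051, followed another order of boars. It measured 6.14, 6.29, 6.75 and 7.79 in the boars m_9597, m_9599, m_9499 and m_9527 and 5.90, 6.75, 6.35 and 6.35 in m_9598, m_9600, m_9502 and m_9528. Its difference of 0.40 (SE 0.35, adjusted p 0.840 in limma) rested on boar m_9527 and was 0.06 without it. Among the brothers it was -0.12.

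The fibrillar collagens had 4 present probes. On the supplemented diet 2 were higher and 2 lower on average, none with P under 0.05. COL5A1 and COL5A2 encode the chains of type V collagen, which sits inside type I fibrils and sets their diameter. COL5A1 (A_72_P077826) measured 7.45, 7.72, 7.15 and 7.82 in the boars m_9597, m_9599, m_9499 and m_9527, and 7.08, 7.49, 7.02 and 6.77 in m_9598, m_9600, m_9502 and m_9528. The groups overlapped, with m_9499 below the control boar m_9600, and the difference was 0.45 (SE 0.21, adjusted p 0.840 in limma). COL5A2 (A_72_P223952) went the other way, with 6.60 ± 0.27 (SD, n = 4) against 6.86 ± 0.80 (SD, n = 4), the control boars reaching from 5.80 in m_9502 to 7.74 in m_9528. Its difference of -0.26 was 0.04 without m_9528. The 2 chains of the same collagen therefore did not share an order of boars: m_9528 was the lowest of all boars for COL5A1 and the highest for COL5A2. COL5A3 (A_72_P223917), the third chain, differed by -0.08 and COL11A1 by 0.06.

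Of the non-fibrillar collagens, COL10A1 (A_72_P177486), known from hypertrophic cartilage, measured 6.25, 6.02, 6.32 and 6.37 on the supplemented diet in the boars m_9597, m_9599, m_9499 and m_9527, and 6.20, 5.89, 6.48 and 6.36 on the control diet in m_9598, m_9600, m_9502 and m_9528. Its diets hardly differed, by 0.01 (SE 0.17). COL8A1 (A_72_P189126), a network collagen of vessel walls, measured 6.04 ± 0.33 against 5.72 ± 0.30 (SD, n = 4 each), with m_9527 highest at 6.50.

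SPARC, a collagen-binding glycoprotein, was measured by 4 probes, each higher on average on the supplemented diet. Its brightest probe, A_72_P092671, measured 13.59, 13.78, 14.13 and 13.30 in the boars m_9597, m_9599, m_9499 and m_9527 and 13.27, 13.83, 13.56 and 12.69 in m_9598, m_9600, m_9502 and m_9528. The difference was 0.36 (SE 0.27) and lay between 0.16 and 0.32 for the other 3 probes, and in all 4 the diets overlapped. The adjusted P-values from limma were 0.840 to 0.850. Among the brothers the 4 differences were between 0.03 and 0.13, and among the other boars between 0.28 and 0.62.

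DCN, the small proteoglycan decorin, had 3 probes, and FBN1 had 1 (A_72_P088351). Each of the 4 was lower on average on the supplemented diet, with differences from -0.29 to -0.12, and none reached P under 0.05. The spread between control boars was several times that difference. DCN probe A_72_P180841 ran from 12.11 in m_9502 to 13.34 in m_9600 on the control diet and from 12.39 to 13.02 on the supplemented diet. FBN1 ran from 7.44 in m_9502 to 8.73 in m_9528 on the control diet and from 7.63 to 8.50 on the supplemented diet.

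Boar m_9502 was the lowest of the 8 boars in all 3 DCN probes, in FBN1 and in COL5A2, which were singled out after their values were seen. In all, it was lowest in 8 of the 22 probes named by RefSeq and highest in 1. Boar m_9528, on the same diet and slide, was lowest in 7 probes (COL5A1, COL8A1, MMP2, MMP14, a pair of SPARC probes and the ADAMTS1 probe A_72_P261392) and highest in 3 (COL5A2, FBN1 and a DCN probe). Boar m_9527 was highest in 8 probes. The boars m_9597 and m_9599 were neither lowest nor highest in any of the 22 (0 probes each). How often each boar was lowest or highest over all present probes was not counted. The array weights of limma, fitted over all present probes, are smaller for arrays that deviate more. They were lowest in m_9502 (0.32), m_9527 (0.39) and m_9528 (0.48), against 2.95 in m_9597 and 2.38 in m_9599. The counts are thus not read as a trait of these members. Without boar m_9502 the diet difference was -0.58 for FBN1 and -0.61 for COL5A2, each with a limma P-value under 0.05. In that fit 3 of 22 members and 16.6% of all present probes had such a P-value.

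**Figure D3:**
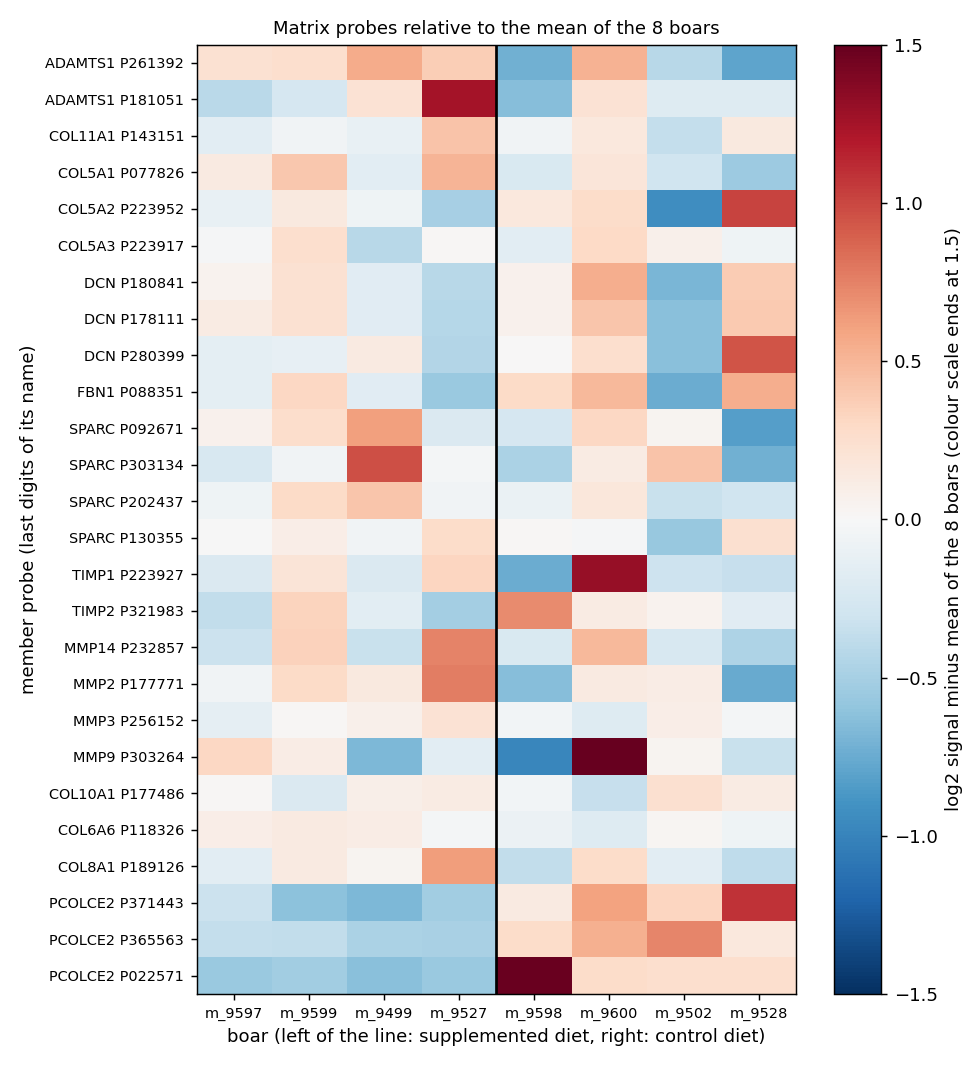
Log2 signal of each of the 26 present member probes (rows) in each boar (columns) minus the mean of the 8 boars, with the supplemented diet left and the control diet right of the line. The 3 PCOLCE2 rows separate at the line, DCN, FBN1 and COL5A2 are lowest in boar m_9502, and MMP9 and TIMP1 are highest in boar m_9600.

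Metalloproteinases were present with 4 genes, of which 3 were higher on average in the supplemented boars and 0 reached P under 0.05. MMP14 (A_72_P232857), the membrane-bound enzyme that activates MMP2, measured 12.10, 12.77, 12.08 and 13.17 in the boars m_9597, m_9599, m_9499 and m_9527 and 12.19, 12.90, 12.18 and 11.95 in m_9598, m_9600, m_9502 and m_9528. The diets differed by 0.22 (SE 0.29), less than the range within either diet. MMP2 (A_72_P177771), gelatinase A, ran from 10.94 to 11.76 in the supplemented boars and from 10.23 to 11.13 in the control boars, a difference of 0.57 (SE 0.26, adjusted p 0.840 in limma). MMP2 and MMP14 had the same highest boar, m_9527, and the same lowest boar, m_9528. MMP3 (A_72_P256152), stromelysin-1, was dim and nearly even, between 5.64 and 6.04 in all boars.

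MMP9, gelatinase B, had the largest spread between boars of the 26 present members, with an SD of 0.80 over the 8 boars. Its probe A_72_P303264 measured 10.35, 10.15, 9.37 and 9.88 in the boars m_9597, m_9599, m_9499 and m_9527 on the supplemented diet, and 9.06, 11.71, 10.07 and 9.70 in m_9598, m_9600, m_9502 and m_9528 on the control diet. The brothers m_9598 and m_9600, both on the control diet and on the same slide, were thus the lowest and the highest boar, 2.65 apart on the log2 scale. The diet difference of -0.20 (SE 0.49, adjusted p 0.920 in limma) turned to 0.32 without boar m_9600.

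TIMP1, the inhibitor that binds MMP9 and its proform, had the same extremes. Its probe A_72_P223927 measured 7.48, 7.89, 7.48 and 8.02 in the boars m_9597, m_9599, m_9499 and m_9527, and 6.95, 8.998, 7.39 and 7.35 in m_9598, m_9600, m_9502 and m_9528. The diet difference was 0.04 (SE 0.39, adjusted p 0.980 in limma). Without boar m_9600 it was 0.49.

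TIMP2, which takes part in the activation of MMP2 by MMP14, did not follow TIMP1. Its probe A_72_P321983 measured 13.16, 13.86, 13.37 and 13.01 in the boars m_9597, m_9599, m_9499 and m_9527, and 14.24, 13.65, 13.58 and 13.36 in m_9598, m_9600, m_9502 and m_9528. Boar m_9598, lowest for TIMP1, was highest for TIMP2. The difference for TIMP2 was -0.36 (SE 0.24, adjusted p 0.840 in limma).

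The macrophage marker list was also highest in boar m_9600. Its 6 present probes cover 3 of 6 genes (AIF1, CD14 and CD163; CD68, CSF1R and MRC1 had no named probe), were all well above background on all 8 arrays, and summed to a log2 signal of 10.72 to 11.60 in the supplemented and 10.13 to 11.70 in the control boars. The list median relative to all boars was 0.67 in m_9600 and -0.42 in m_9598, and it was lowest in m_9502 (-0.45). In m_9527 it was the second highest, 0.46, where TIMP1 was also second highest at 8.02 but MMP9, at 9.88, was below its mean. The medians of the peritubular list (0.46), the endothelial list (0.35) and the 2 KIT probes (0.78) were highest in m_9600 as well. The peritubular median was also lowest in m_9598 (-0.43), as MMP9 and TIMP1 were. Leydig, Sertoli, spermatid and duct epithelium medians were highest in other boars. The part of macrophages or of other cell types in the MMP9 and TIMP1 values was not tested.

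**Figure D4:**
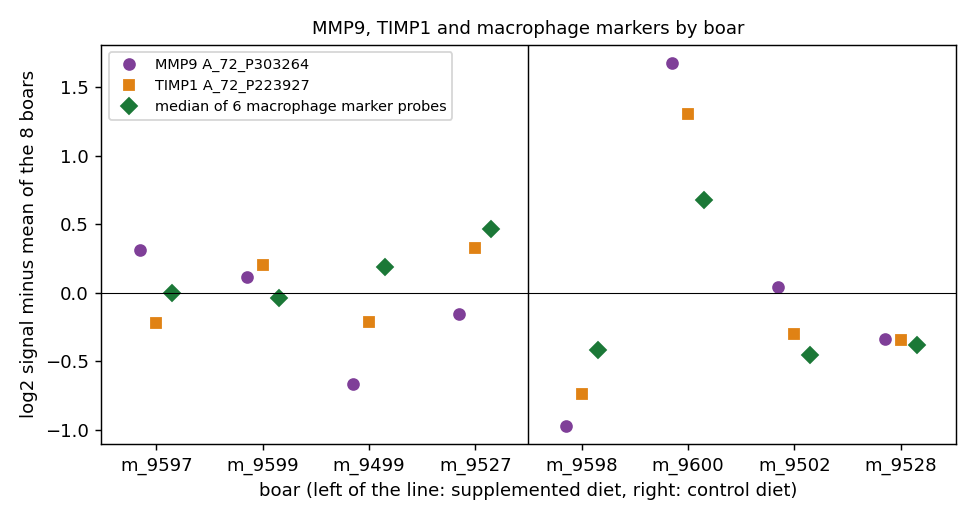
Log2 signal minus the mean of the 8 boars for MMP9 (circles), TIMP1 (squares) and the median of 6 macrophage marker probes (diamonds), by boar and diet. All 3 are highest in the control boar m_9600, and MMP9 and TIMP1 are lowest in the control boar m_9598. The median of the peritubular list, not drawn, shares both extremes, while the macrophage median is lowest in m_9502.

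The 22 probes named by RefSeq had a median SD of 0.42 over the 8 boars, against 0.30 over all present probes, and individual SDs from 0.13 (MMP3) to 0.80 (MMP9). Brightness was not matched in this description. The largest SDs after MMP9 were those of PCOLCE2 A_72_P022571 (0.73) and A_72_P371443 (0.64), TIMP1 (0.62) and ADAMTS1 A_72_P181051 (0.58).

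The slides were compared as well. With diet in the model, limma gave 0 of 22 members a P-value under 0.05 between the brothers' slide and the second slide, against 8.11% of all present probes, and 0 after adjustment. The lowest adjusted P-value was 0.628, for COL10A1. The methods' t-test gave 2 of 22 with P under 0.05 (COL10A1 and MMP3). The diet difference did not differ detectably between the slides either. For the interaction of diet with slide, limma gave 0 of 22 members P under 0.05, against 2% of all present probes, and 0 after adjustment. Each slide held 2 boars per diet, so that only large differences between slides could show.

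Other genes of matrix assembly, adhesion and turnover were counted from a list of 87 genes, of which 20 genes had a named probe, 34 probes in all and each of them present. Apart from 4 probes that are also in the study's list, 1 of 30 reached P under 0.05, or 3.33%, against 1.86% of all present probes, and none after adjustment. That probe, A_72_P165441, belongs to ITGAV, the integrin alpha V chain that binds fibronectin and vitronectin. It differed by -0.96 (SE 0.40, adjusted p 0.840 in limma), with 10.28, 10.34, 10.84 and 9.24 in the boars m_9597, m_9599, m_9499 and m_9527 and 11.32, 10.9995, 10.29 and 11.94 in m_9598, m_9600, m_9502 and m_9528. The diets overlapped, since control boar m_9502 lay within the supplemented group. The 2 other ITGAV probes (A_72_P051521 at -0.62 and A_72_P257667 at -0.67), FAP (A_72_P408303 at -0.81), a serine protease of activated fibroblasts, and a CTSK probe (A_72_P053216 at -0.18) are in the study's list. They were chosen there for their difference in these boars and are given as a description. The CTSK probe was well above background in 0 supplemented and 3 control boars. The CTSK probe named by RefSeq (A_72_P146366) differed by -0.23, and its diets overlapped. In FAP the boars m_9597, m_9599, m_9499 and m_9527 measured 7.13, 7.77, 7.82 and 6.61, and the control boars lay above them between 7.94 and 8.24. The diets did not overlap in FAP and in the CTSK probe of the study's list, as in 1.13% of all present probes. Nothing is read from this for probes chosen by their difference.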

How the data were processed

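RNA of testes was labelled with Cy3 and hybridized to the Agilent Porcine (V2) Gene Expression Microarray, and spots were read with Feature Extraction (10.5.1.1 per the file headers). Spot intensity in the deposited scanner files is raw, with no normalization across arrays. The authors also deposited log2 values, which matched the quantile-normalized log2 gMedianSignal computed here on all 8 arrays and cover only probes present on 3 or more arrays of either diet. The deposited flags tell which spots are well above background, saturated or outlying. No spot was saturated.

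Log2 gMedianSignal of non-control spots was quantile-normalized, spots of one probe were averaged, and present probes were tested for diet with limma 3.58.1 in R 4.3.3 (two-sided, Benjamini-Hochberg over 36982 probes, no block). In simulated data 85.5% of 4-fold changes and 23.5% of 2-fold changes had an adjusted P-value under 0.05. The simulated noise was normal, with each probe's own spread, and independent between probes. Deviations shared by the probes of an array were thus left out. Of the unchanged probes 5.2% to 5.3% had P under 0.05 there, against 1.86% of all present probes in the boars. The recovery rates may thus not carry over to these arrays. Of 3239 RefSeq accessions on the array 2628 matched the RefSeq gene table (Sscrofa11.1, used for names only). The members and lists were chosen with earlier results of these data known. From the study's supplementary list of probes only gene names and probe sequences were taken, not its P-values, folds or boar values. Values in every boar are given for PCOLCE2 and ADAMTS1, the 5 members with the largest SD, and the brightest probe of each role. Per-boar values of COL6A6, DCN, FBN1, COL5A2 and MMP2 were added after they were seen. Members named by that list were not tested, since it holds probes with P under 0.05. The separate boars are biological replicates, and their number, 4 per diet, limits the precision. Alternatives were other signal columns, normalizations, filters, tests, array weights, slide as a block, each slide alone and each boar left out.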

Additional observations from a re-analysis of the deposited data

Results flagged for a closer look

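Within each diet, a boar was listed here if its distance from the nearest other boar exceeded Dixon's 95% limit. This held in 2 of 42 groups, where chance gives about 2.1. The PCOLCE2 probe A_72_P022571 was high in the control boar m_9598, at 7.33 against 6.10 to 6.13 in the other control boars. The macrophage markers of control boar m_9600 had a list median of 0.67, the remaining control boars -0.45 to -0.39.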

How the results depend on the processing

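No paired analysis was possible over all boars, because the litters of the boars other than the brothers are not assigned. The labels give no replicate numbers that would pair the boars either. With the slide, which is also the litter of brothers, as a block, 1 of 22 members named by RefSeq had P under 0.05, as without it. The share of all present probes was 1.96% in that fit. Of the 34 other matrix probes, some of them from the study's list, 4 had such a P-value with and without the block. Removal of outlier spots and presence on 3 of 4 arrays were chosen after seeing the data. No member named by RefSeq had an adjusted P-value under 0.05 under any alternative run. The number with P under 0.05, 1 of 22, was 2 with gProcessedSignal (COL5A1 besides ADAMTS1), 0 in the methods' t-test, 4 with array weights, 0 in the litter of brothers alone, and 0 to 4 when single boars were omitted. It was 4 without m_9600, 3 without m_9502, 2 without m_9597, and 0 without m_9598, m_9527 or m_9528. The share of all present probes with P under 0.05, 1.86%, moved as well, to 2.76% with gProcessedSignal, 15.8% with array weights, 6.44% in the brothers alone, 0.971% in the other slide alone, 3.28% without m_9600, 16.6% without m_9502 and 1.54% without m_9597, and these counts are to be read against it. The number whose diets do not overlap, 0, was 2 among the brothers and 7 on the second slide, where 2 boars face 2. It was 0 to 5 when single boars were omitted: 5 without m_9600 and 1 without m_9502 or m_9597. Diets separate more easily with fewer boars. The share of all present probes that separate in these smaller sets was not counted, so nothing is read from these numbers. The median log2 fold change, 0.07, was 0.27 in the other slide alone. Between slides the number with P under 0.05, 0, was 2 with gProcessedSignal, 1 with gMedianSignal scaled to the 75th percentile, 1 with normexp and 1 with no filter. It was 2 in the methods' t-test, 4 with array weights, and 0 to 4 when single boars were omitted, the highest without m_9528. The share of all present probes between slides was 8.11% in the main fit and was not counted for these alternatives. Nothing is thus read from these slide counts. Of the 34 other matrix probes 4 had P under 0.05, but 10 with array weights, 9 in the brothers alone, 1 in the other slide alone, and 2 to 12 when single boars were omitted. That was 12 without m_9502 and 2 without m_9597 or m_9527. The cause of these shifts was not tested. The PCOLCE2 probe A_72_P371443 lay between -1.30 and -0.83 over the alternatives, where its sign is fixed by how it was chosen. Dim probes near background limit the size of a difference that can be read.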
